A study of Mus musculus with 8 samples.

Results

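The 10 genes described here, Epha2, Spry2, Spry4, Spred1, Dusp4, Dusp5, Dusp6, Etv4, Etv5 and Phlda1, are known as transcriptional targets of ERK signalling, and several of them act back on that pathway as inhibitors. They were taken as a list by name, each through the probe set to which the array annotation gives that symbol alone, and where several carry the same symbol the brightest on average stands for the gene. Of the 10, 9 were among the 13845 genes that passed the filter on low signal, and the array annotation gives 22180 genes in all a probe set with a single symbol. The member that did not pass was Etv4. Mouse primary hepatocytes of male C57Bl6J mice were measured on 8 Affymetrix MoGene 2.0 ST arrays, 2 in each of 4 groups. The groups received 100 nM glucagon with 2 µM GW4064, 100 nM glucagon, 2 µM GW4064, or DMSO, for 6 h, and all of them were kept in medium with 100 nM dexamethasone. Each group has 1 array from experiment 2 and 1 from experiment 1. Each experiment used hepatocytes pooled from 3 mice, with 2 technical replicates pooled per sample, so the 2 arrays of a group differ in their pool of cells and an experiment stands for 1 pool. All values below are log2 signals or differences between them, and the number of arrays limits their precision.

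Growth factors acting on receptor tyrosine kinases switch on RAS, RAF, MEK and ERK in turn, and active ERK induces early genes such as Egr1 and, with them, proteins that end the signal. Sprouty and Spred proteins act near the receptor and on RAS and RAF, the dual-specificity phosphatases Dusp4, Dusp5 and Dusp6 remove the activating phosphates from ERK, and the ETS factors Etv4 and Etv5 carry the signal to further genes. In liver the pathway is known for its part in the growth response of hepatocytes to injury. Glucagon, secreted in fasting, signals through cyclic AMP and protein kinase A, and GW4064 is a man-made ligand that activates the bile acid receptor FXR.

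Glucagon acted in these cells as measured by its known targets: against DMSO, Pck1 and G6pc, both enzymes of glucose production, rose by 5.26 and 4.11, and the cyclic AMP-responsive nuclear receptor gene Nr4a1 rose by 1.85 (limma, adjusted p = 0.00541, 0.00140 and 0.00310). For GW4064 against DMSO, the FXR targets Abcb11, Nr0b2 and Osgin1 differed by 0.75, 0.42 and 0.74, and 0 of the 3 passed the test. The 12 listed hepatocyte markers all passed the filter, whereas of 10 listed cholangiocyte markers only Krt19, Epcam, Sox9 and Pkhd1 did, and the defining marker Krt7 was below it. The GW4064 array of experiment 2 stood apart, its median being 3.57 where the remaining 7 had medians of 3.42 to 3.46, so the counts of members called, and those of list genes over all glucagon arrays and for glucagon against DMSO, are also given without it. Arrays of the same experiment deviated together from their group means (r of 0.350 to 0.620 in 6 pairs of groups), so adjusted p-values with the experiment as a block are given where they change a call.

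Epha2, a receptor tyrosine kinase of the ephrin family that is also induced by ERK, was lower on every array with glucagon than on any array without it. In experiments 2 and 1 its log2 signal was 7.91 and 8.16 with glucagon and GW4064, 7.87 and 8.07 with glucagon, 8.61 and 9.56 with GW4064, and 8.39 and 9.31 with DMSO. The 4 arrays with glucagon lay at 7.87 to 8.16 and the 4 without it at 8.39 to 9.56. Over both treatment backgrounds, glucagon against no glucagon gave a log2 difference of -0.97 (SE 0.27, 4 arrays each), a 1.96-fold lower signal. In limma this had an adjusted p of 0.160 over all 13845 genes without the experiment, and of 0.0214 with the experiment as a block. The pairs behind it were glucagon against DMSO, with a difference of -0.88 (SE 0.38, adjusted p = 0.754, or 0.154 with the block), and glucagon plus GW4064 against GW4064, with a difference of -1.06 (SE 0.38, adjusted p = 0.427, or 0.0952 with the block).

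Phlda1, a pleckstrin-homology-domain protein gene induced by growth factors, was also lower on the glucagon arrays. Its log2 signal in experiments 2 and 1 was 5.10 and 4.98 with glucagon and GW4064, 4.79 and 4.89 with glucagon, 5.38 and 6.42 with GW4064, and 5.28 and 6.57 with DMSO. The 4 glucagon arrays were below all 4 arrays without glucagon, but in experiment 2 the gap was small. The log2 difference for all glucagon arrays was -0.97 (SE 0.32, limma adjusted p = 0.223, or 0.0707 with the block), and for glucagon against DMSO it was -1.09 (SE 0.45, adjusted p = 0.736). Neither passed the test. With the block and without the GW4064 array of experiment 2, the adjusted p over all glucagon arrays was 0.0446.

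Of the ERK phosphatases, the nuclear, ERK-specific Dusp5 was low on the glucagon arrays. In experiments 2 and 1 it read 5.99 and 5.85 with glucagon and GW4064, 5.71 and 5.56 with glucagon, 6.03 and 7.38 with GW4064, and 6.36 and 7.29 with DMSO. The glucagon arrays, at 5.56 to 5.99, did not overlap the arrays without glucagon, at 6.03 to 7.38, although the GW4064 array of experiment 2 was only just above them. The log2 difference over all glucagon arrays was -0.98 (SE 0.32, limma adjusted p = 0.217, or 0.0853 with the block), and for glucagon against DMSO it was -1.18 (SE 0.45, adjusted p = 0.661). Without the GW4064 array of experiment 2, the difference over all glucagon arrays was -1.32 with an adjusted p of 0.0442, and with the block as well it was -1.27 with an adjusted p of 0.0199.

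Dusp4, a nuclear phosphatase for ERK and the stress kinases, went the other way. Its log2 signal in experiments 2 and 1 was 4.27 and 4.25 with glucagon and GW4064, 3.97 and 3.99 with glucagon, 3.72 and 3.54 with GW4064, and 3.86 and 3.62 with DMSO. The arrays with both agents were the highest, those with glucagon alone came next, and these 4 did not overlap the 4 arrays without glucagon. The log2 difference over all glucagon arrays was 0.44 (SE 0.09), with a limma adjusted p of 0.0962 without the experiment and 0.0349 with it as a block. With both agents against GW4064 it was 0.64 (SE 0.13, adjusted p = 0.203, or 0.0701 with the block), with both agents against DMSO it was 0.52 (SE 0.13, adjusted p = 0.412, or 0.140 with the block), and with glucagon against DMSO it was 0.24 (SE 0.13, adjusted p = 0.862).

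Dusp6, the cytoplasmic ERK phosphatase, followed the pool of cells rather than the treatment in its order of arrays. It read 7.02 and 7.85 in experiments 2 and 1 with glucagon and GW4064, 6.75 and 7.94 with glucagon, 6.71 and 7.42 with GW4064, and 7.003 and 7.52 with DMSO. Every array of experiment 2 (6.71 to 7.02) was below every array of experiment 1 (7.42 to 7.94), while the glucagon arrays overlapped the others. Of all genes tested, 14.4% had no overlap between the experiments in either direction, so such a separation is not particular to Dusp6. The log2 difference over all glucagon arrays was 0.23 (SE 0.33, adjusted p = 0.799).

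**Figure D1:**
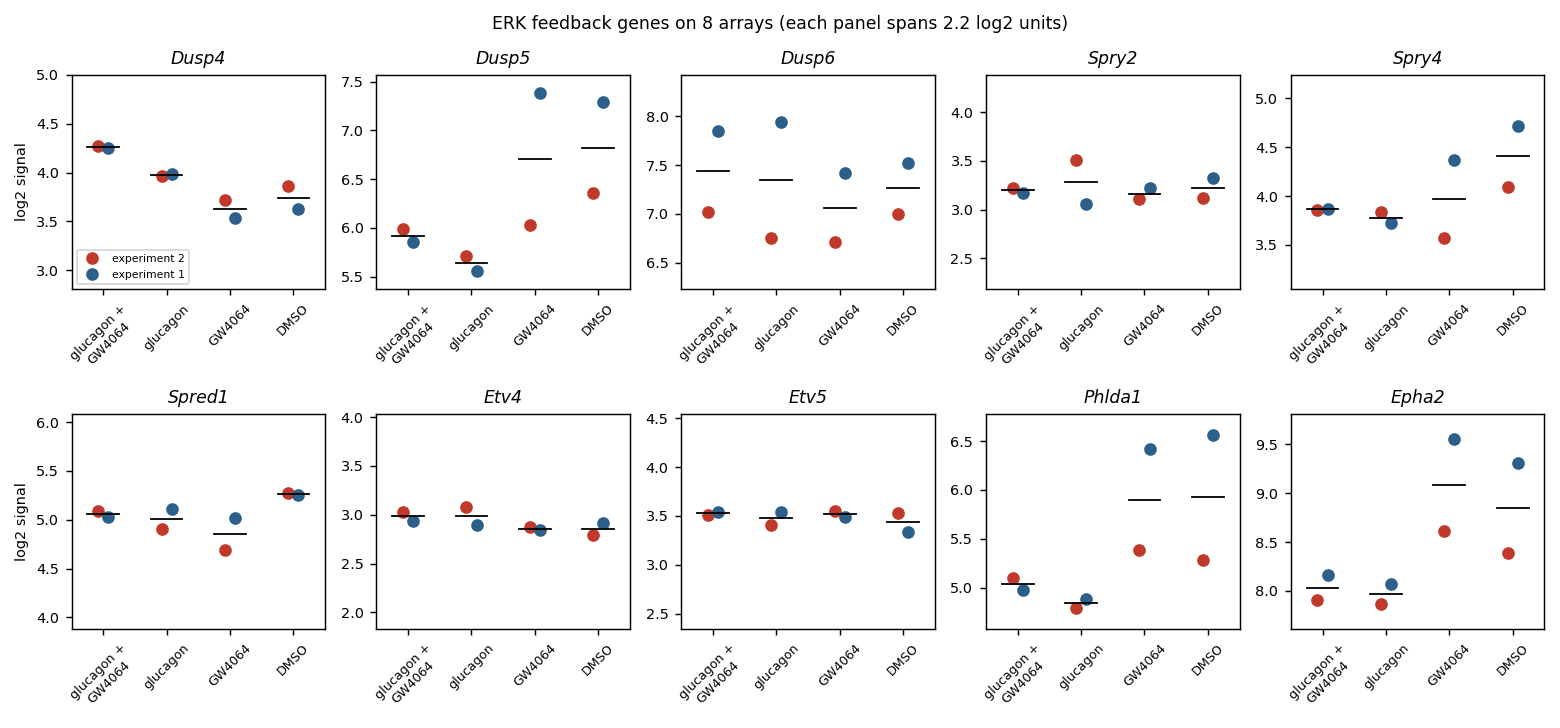
Log2 signal (vertical axis, all panels spanning the same range) of the 10 ERK feedback genes in the 4 treatment groups, with 1 point per array (red experiment 2, blue experiment 1) and the group mean as a line. Epha2, Phlda1 and Dusp5 are lower and Dusp4 is higher on all 4 arrays with glucagon than on the 4 without (no overlap in 13% of all genes). Dusp6 separates by experiment (as do 14.4% of all genes).

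The Sprouty and Spred inhibitors did not pass the test in any comparison. Spry4 read 3.86 and 3.87 in experiments 2 and 1 with glucagon and GW4064, 3.83 and 3.72 with glucagon, 3.57 and 4.37 with GW4064, and 4.10 and 4.72 with DMSO. Its DMSO arrays were above both arrays of either glucagon group, whereas its GW4064 arrays lay on both sides of them. For glucagon against DMSO the log2 difference was -0.63 (SE 0.29, adjusted p = 0.803, or 0.333 with the block). Spred1 read 5.09 and 5.03 with glucagon and GW4064, 4.91 and 5.10 with glucagon, 4.69 and 5.02 with GW4064, and 5.27 and 5.26 with DMSO. All 6 arrays with an agent were below both DMSO arrays. The share of all genes with such orders of arrays was not counted, so those of Spry4 and Spred1 are no support for a difference. The log2 differences of Spred1 against DMSO were -0.21 with both agents, -0.26 with glucagon and -0.41 with GW4064 (SE 0.15 each, limma adjusted p = 0.983, 0.864 and 0.999). Spry2 was close to the filter level on all 8 arrays, between 3.06 and 3.51, and exceeded it on 5.

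The ETS factors were measured near the lower end of the signal range. Etv4 lay between 2.79 and 3.08 and exceeded the filter level on 0 of 8 arrays, so it was not tested. Etv5 was represented by 2 probe sets that disagreed. The one with the higher mean lay at 3.41 to 3.54 on the glucagon arrays and 3.34 to 3.55 on the others, with a log2 difference of 0.02 (SE 0.09, adjusted p = 0.934). The second probe set, looked at after the values had been seen, read 2.71 and 3.09 in experiments 2 and 1 with glucagon and GW4064, 2.86 and 2.96 with glucagon, 3.32 and 3.52 with GW4064, and 3.35 and 3.59 with DMSO. Its 4 glucagon arrays were below its other 4, with a log2 difference of -0.54 (SE 0.12, adjusted p = 0.106). All 4 glucagon arrays were below their filter levels (3.14 to 3.17) and the other 4 above theirs. This probe set thus passed the filter only through the arrays without glucagon, and its separation is no support for a difference. The sign for Etv5 depends on the probe set, and the arrays do not tell which of them follows the gene. The second probe set of Dusp6 lay between 3.23 and 3.51 on all 8 arrays.

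The sequence just upstream of a gene is where cyclic AMP and ERK signals are known to act, through CREB at cyclic AMP response elements (CRE) and through serum response factor at CArG boxes. RefSeq promoter windows of the GRCm38.p6 build, from 250 bases before to 50 after the gene start, were at hand for 6 of the 10 members. The windows of Epha2 and Dusp5, which were low with glucagon, and of Dusp6, which was not, are shown 5′ to 3′ on the gene's strand, all of them forward. Capitals mark matches to the motifs, and there are none in the window of Dusp6.
Epha2, chr4:141300971-141301270 (+): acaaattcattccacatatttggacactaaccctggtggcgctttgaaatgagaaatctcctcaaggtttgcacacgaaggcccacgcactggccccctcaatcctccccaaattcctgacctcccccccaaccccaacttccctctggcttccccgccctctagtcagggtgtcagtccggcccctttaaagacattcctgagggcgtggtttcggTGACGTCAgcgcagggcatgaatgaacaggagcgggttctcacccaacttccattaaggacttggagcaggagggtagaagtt
Dusp5, chr19:53528895-53529194 (+): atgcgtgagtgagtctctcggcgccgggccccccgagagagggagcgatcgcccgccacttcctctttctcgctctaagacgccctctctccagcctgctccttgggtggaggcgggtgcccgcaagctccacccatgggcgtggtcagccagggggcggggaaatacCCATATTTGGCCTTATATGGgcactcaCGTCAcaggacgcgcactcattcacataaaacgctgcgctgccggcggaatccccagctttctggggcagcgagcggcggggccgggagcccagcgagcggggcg
Dusp6, chr10:99262981-99263280 (+): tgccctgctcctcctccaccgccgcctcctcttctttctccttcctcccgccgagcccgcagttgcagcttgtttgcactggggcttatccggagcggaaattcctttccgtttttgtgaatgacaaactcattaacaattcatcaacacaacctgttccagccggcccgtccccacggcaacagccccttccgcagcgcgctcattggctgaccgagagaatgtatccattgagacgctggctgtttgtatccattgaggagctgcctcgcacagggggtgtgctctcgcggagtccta
Epha2 held the full CRE TGACGTCA, which starts at position -33 from the gene start and which 1.79% of the 32851 promoters in the table held. Dusp5 held the short CRE form TGACG, read on the other strand as CGTCA, at position -55, and 20.81% of all promoters held at least 1 short form on either strand, those within a full site included. Dusp5 also held 2 CArG boxes side by side, CCATATTTGG and CCTTATATGG, at positions -82 and -72, and 1.63% of all promoters held 1 or more. This motif was added after the sequence had been seen. None of the 6 members with a window held the AP-1 site TGANTCA (7.81% of all promoters) or the ETS site CCGGAAG (8.86%). All motifs were searched on both strands, and a match describes the letters only.

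Counted over the members, glucagon against DMSO called 0 of 9 at an adjusted p below 0.05 in limma, where 0.116% of all genes were called. Of the 9, 2 members had an unadjusted p below 0.05 without the block and 4 with it, as did 927 and 1807 of all 13845 genes. With the block 0 of 9 were called either (0.925% of all genes). Glucagon plus GW4064 against GW4064 also called 0 of 9 (0.166% of all genes), with 2 members and 1453 of all genes at an unadjusted p below 0.05. Glucagon plus GW4064 against DMSO called 0 of 9 (0.123% of all genes), with 1 member and 861 of all genes at such a p. With the block these 2 comparisons called 0 of 9 as well, where 1.06% and 0.737% of all genes were called. With the block and without the GW4064 array of experiment 2, glucagon against DMSO, glucagon plus GW4064 against GW4064 and glucagon plus GW4064 against DMSO again called 0 of 9 (3.16%, 1.37% and 2.47% of all genes). Over all glucagon arrays, 0 of 9 were called without the block (1.32% of all genes). There 4 members and 2012 of all genes had an unadjusted p below 0.05. With the block 2 of 9 were called, Dusp4 up and Epha2 down, where 5.76% of all genes were called, 2.67% up and 3.08% down. With the block and without the GW4064 array of experiment 2, 4 of 9 were called, Dusp4 up and Dusp5, Epha2 and Phlda1 down, where 10.5% of all genes were called, 3.86% up and 6.64% down. The glucagon arrays did not overlap the arrays without glucagon for 4 of 9 members, 1 up and 3 down, as for 13% of all genes, 6.07% up and 6.88% down. The median difference of the 9 was -0.03 over all glucagon arrays, against 0.00 over all genes tested, and -0.26 for glucagon against DMSO, against -0.01. The members were chosen with earlier results of these data known, so these counts and medians are a description and no test of the list.

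Summed log2 signals of 2 marker lists did not overlap between the arrays with and without glucagon. The 7 cholangiocyte markers with a probe set summed to 24.5 to 25.1 on the glucagon arrays and to 26.0 to 28.0 on the others. Most of this was Sox9, which read 5.43 to 5.94 with glucagon and 6.32 to 7.88 without, while Krt7, Cftr and Muc1 were below the filter. The proliferation markers summed to 33.5 to 34.1 with glucagon and to 32.9 to 33.4 without, and of these 9 only Pcna and Mcm2 passed the filter. The 12 hepatocyte markers summed to 132.4 to 132.5 with glucagon and 131.7 to 133.2 without in experiment 2, and to 128.9 to 129.3 and 126.0 to 126.1 in experiment 1. In experiment 1, Tat read 12.26 to 12.27 with glucagon and 11.12 to 11.26 without, and Cps1 11.62 to 11.87 and 11.23 to 11.28. Over all glucagon arrays, 8 of the 12 had a positive difference. Of these, 1 was called up (1.32% of all genes called), or 2 with the block (2.67% of all genes up). Across both experiments the 10 endothelial markers summed to 42.1 to 46.4 with glucagon and 42.7 to 46.5 without. The part of such cells in the results was not tested, and in these bulk cultures fewer cells of a type and less RNA per cell cannot be told apart.

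GW4064 made no difference that passed the test in any member. For GW4064 against DMSO, 0 of 9 members were called (0% of all genes). Only 1 member, Spred1, had an unadjusted p below 0.05, as did 373 of all 13845 genes. The log2 differences ran from -0.44 (Spry4, SE 0.29) to 0.24 (Epha2, SE 0.38). For glucagon plus GW4064 against glucagon they ran from -0.08 (Spry2, SE 0.17) to 0.29 (Dusp4, SE 0.13), with 0 of 9 called, 0 at an unadjusted p below 0.05 and 0% of all genes called. Over all GW4064 arrays the range was -0.18 (Spred1, SE 0.11) to 0.15 (Epha2, SE 0.27), again with 0 of 9 called, 0 at an unadjusted p below 0.05 and 0% of all genes called. The interaction, which asks whether the glucagon difference was another one in the presence of GW4064, called 0 of 9 members and 0% of all genes, with 0 at an unadjusted p below 0.05. With the block, and also without the GW4064 array of experiment 2, these 4 comparisons called 0 of 9 members, and 0% of all genes except 0.0217% over all GW4064 arrays without that array. The largest values of the interaction were 0.53 for Spry4 (SE 0.41), 0.46 for Spred1 (SE 0.21) and 0.40 for Dusp4 (SE 0.19). With the block, Spred1 and Dusp4 had an unadjusted p below 0.05 there (limma adjusted p = 0.9996 each), as did 332 of all 13845 genes. Over all GW4064 arrays the 95% interval of the log2 difference, in the fit without the block, was -0.67 to 0.84 for Dusp5, -0.67 to 0.84 for Phlda1 and -0.48 to 0.78 for Epha2. The data are thus compatible with differences anywhere inside these intervals.

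**Figure D2:**
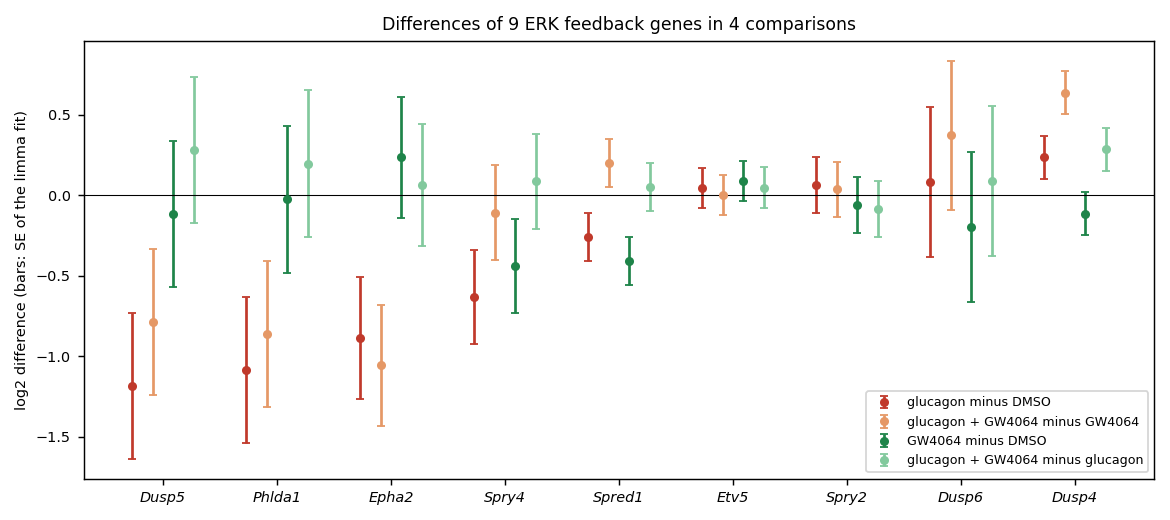
Log2 difference (vertical axis) of the 9 tested ERK feedback genes for glucagon minus DMSO, glucagon plus GW4064 minus GW4064, GW4064 minus DMSO, and glucagon plus GW4064 minus glucagon, with bars for the standard error of the limma fit over 8 arrays. Both glucagon differences of Dusp5, Phlda1 and Epha2 lie at or below -0.78, and the differences made by GW4064 lie between -0.44 and 0.29.

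The glucagon difference was also taken within each pool of cells. This split was made after the values had been seen. Its fit to all 8 arrays had terms for glucagon, GW4064, the pool, and glucagon by pool. The spread was pooled over both pools, with 3 residual degrees of freedom. Arrays of 1 pool thus stand in for replicates, so the split speaks only of these pools. In experiment 2 the log2 difference between the 2 glucagon arrays and the 2 without was -0.34 for Dusp5, -0.39 for Phlda1 and -0.62 for Epha2. In experiment 1 it was -1.62 for Dusp5, -1.56 for Phlda1 and -1.32 for Epha2. Spry4 differed by 0.01 in experiment 2 and by -0.75 in experiment 1, and Dusp4 by 0.33 and 0.54. In limma, experiment 2 called Epha2 (adjusted p = 0.0410; 2.07% of all genes called). Experiment 1 called Dusp5, Phlda1 and Epha2 (adjusted p = 0.00350, 0.00156 and 0.00128; 7.9% of all genes called). The difference between the experiments itself was 1.28 for Dusp5 (SE 0.23, adjusted p = 0.171), 1.17 for Phlda1 (SE 0.18, adjusted p = 0.140), 0.71 for Epha2 (SE 0.14, adjusted p = 0.199) and 0.76 for Spry4 (SE 0.25, adjusted p = 0.384). It called 0 of 9 members and 0.00722% of all genes. An unadjusted p below 0.05 was found for 4 members, these 4, and for 1466 of all 13845 genes. For these genes the arrays with glucagon were nearer to each other across the pools than the arrays without it. Without glucagon, Phlda1 read 5.28 to 5.38 in experiment 2 and 6.42 to 6.57 in experiment 1, and with glucagon it read 4.79 to 5.10 and 4.89 to 4.98.

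**Figure D3:**
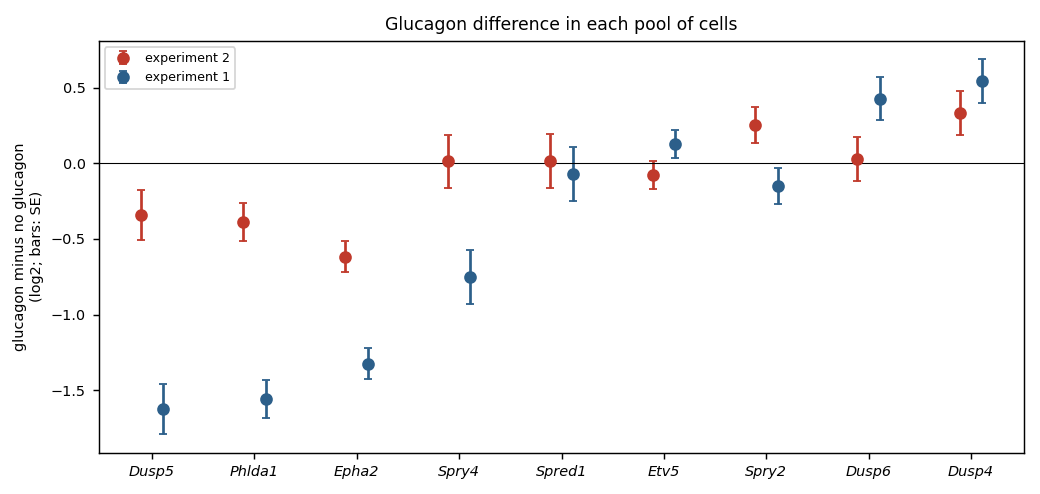
Log2 difference (vertical axis) between the 2 arrays with glucagon and the 2 without in experiment 2 (red) and experiment 1 (blue) for the 9 tested ERK feedback genes, with bars for the standard error. The values of Dusp5, Phlda1 and Epha2 are -0.34, -0.39 and -0.62 in experiment 2 and -1.62, -1.56 and -1.32 in experiment 1.

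Between the experiments, Dusp6 was the only member of 9 that limma called, where 5.16% of all genes were called, 2.52% in the same direction. Its log2 difference for experiment 2 against experiment 1 was -0.81 (SE 0.12, adjusted p = 0.0185). An unadjusted p below 0.05 was found for 1 other member, Epha2, at -0.58 (SE 0.16, adjusted p = 0.0846), where 3314 of all 13845 genes had one. The rest of this paragraph is about Dusp6 and the pools. The call was lost when any 1 array with glucagon or with DMSO was left out (adjusted p of 0.0612 to 0.0822), and it was kept without either GW4064 array. It was also lost with the mean of both Dusp6 probe sets (-0.39, adjusted p = 0.0779). The hepatocyte markers summed to 131.7 to 133.2 in experiment 2 and 126.0 to 129.3 in experiment 1, and 12 of 12 had a positive difference, 3 of them called. The endothelial markers summed to 42.1 to 43.1 in experiment 2 and 46.2 to 46.5 in experiment 1, the stellate cell markers to 35.2 to 35.6 and 33.2 to 33.7, and the Kupffer cell markers to 41.6 to 43.1 and 40.4 to 41.5. Of the 10 stellate cell markers 4 passed the filter. Reln, Dcn and Rgs5 were higher in experiment 2, Pdgfrb was not, and Lrat, Des, Col1a1 and Col3a1 were below the filter. The Kupffer cell markers Adgre1, Clec4f, Csf1r and Vsig4 were near the filter level, at 2.75 to 3.35, and Cd5l and C1qc were below it. Cd68 read 10.34 to 10.82 in experiment 2 and 10.09 to 10.30 in experiment 1, and Marco 4.51 to 4.86 and 4.22 to 4.50. C1qa read 3.81 to 4.12 and 3.52 to 3.66, and C1qb 4.64 to 5.05 and 4.53 to 4.75. Of the 8 Kupffer cell markers tested, 2 were called up in experiment 2. The part of such cells in the Dusp6 difference was not tested. With 1 pool in each experiment, this compares 2 pools only.

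The rest of the pathway was followed through 5 lists. They were chosen with earlier results of these data known, so their counts beside the shares of all genes are a description and no test of the lists. Among the effectors and target transcription factors of ERK, 24 of 31 were tested and 1 was called over all glucagon arrays, where 1.32% of all genes were. This was Egr1, the early growth response factor, which fell by 1.54 (SE 0.15, limma adjusted p = 0.00805) with 4.11 to 4.32 on the glucagon arrays and 5.15 to 5.99 on the others. With the block 7 of the 24 fell and 0 rose, where 3.08% of all genes fell and 2.67% rose. Besides Egr1 these were the AP-1 subunit gene Junb (-0.88, adjusted p = 0.0354), Ets2 (-0.51, 0.0333), the ERK-activated kinase gene Mknk1 (-0.67, 0.0282), the urokinase receptor gene Plaur (-1.56, 0.00339), Myc (-0.53, 0.0372) and the survival gene Mcl1 (-0.46, 0.0339). The adjusted p of these 6 without the block was 0.0707 to 0.158, and Myc is named here outside the naming rule, after its values were seen. Without the GW4064 array of experiment 2, the fit with the block had 10 of the 24 fall and 0 rise, where 6.64% of all genes fell. The 3 added were Klf10, Jun and Ets1, named likewise after their values were seen. The median of the 24 was -0.31, the lowest of the 5 lists.

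Upstream, 9 of 16 ligands of receptor tyrosine kinases were tested and 0 were called over all glucagon arrays without the block (1.32% of all genes). With it, the growth factor gene Fgf1 rose by 0.90 (limma adjusted p = 0.0134, or 0.235 without the block) and the EGF-family gene Btc fell by 0.51 (0.0251, or 0.543). With the block 2.67% of all genes rose and 3.08% fell. Hbegf, an EGF receptor ligand that is itself an ERK target, had the widest difference of the list. It read 5.73 and 5.10 in experiments 2 and 1 with glucagon and GW4064, 5.33 and 4.75 with glucagon, 6.39 and 8.38 with GW4064, and 6.58 and 7.68 with DMSO. This log2 difference of -2.03 did not pass the test (limma adjusted p = 0.112, or 0.0508 with the block). The arrays with and without glucagon did not overlap, as for 6.88% of all genes in that direction. The difference was called with the block and without the GW4064 array of experiment 2. Of 22 receptors and coreceptors, 14 were tested, with a median of 0.15. Over all glucagon arrays 0 of them were called with or without the block (5.76% and 1.32% of all genes). The FGF coreceptor gene Klb was called up with the block and without the GW4064 array of experiment 2. Of 23 adaptors and RAS, RAF, MEK and ERK genes, 16 were tested. The scaffold gene Iqgap1 fell by 0.94 (SE 0.15, limma adjusted p = 0.0349), where 1.32% of all genes were called. With the block the RAS activator gene Sos1 rose by 0.48 (adjusted p = 0.0471, or 0.170 without the block), where 2.67% of all genes rose. The call of Sos1 was lost with the block and without the GW4064 array of experiment 2 (adjusted p = 0.0520). The median of these 16 was -0.08.

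Of 26 other feedback and brake genes of the pathway, 25 were tested, 0 were called over all glucagon arrays without the block (1.32% of all genes), and 3 fell with it (3.08% of all genes), also without the GW4064 array of experiment 2. They were Spry1, the Sprouty paralogue (-0.50, adjusted p = 0.0326, or 0.0638 without the block), Lrig1, which promotes the degradation of EGF-family receptors (-1.41, 0.0140, or 0.0929), and the pseudokinase gene Trib3 (-0.48, 0.0267, or 0.197). The median of the list was -0.11. For glucagon against DMSO, 0 genes of the 5 lists were called without the block (0.116% of all genes). With the block, where 0.925% of all genes were called, 3 fell: Iqgap1 (-1.01, limma adjusted p = 0.0392), Egr1 (-1.35, 0.0378) and Plaur (-1.55, 0.0281). The genes with the smallest p of each list in this comparison that were not called by either fit were Mknk1 (-0.82), Hbegf (-2.09), Fgf1 (0.96), Lrig1 (-1.44), Spry1 (-0.42), Nras (-0.27), and the receptor genes Ephb4 (0.43) and Klb (0.46), at adjusted p of 0.476 to 0.812 without the block and 0.0775 to 0.396 with it. With the block and without the GW4064 array of experiment 2, Mknk1, Fgf1 and Lrig1 were called (adjusted p = 0.0115, 0.0273 and 0.0402), as were Klf10 and Btc. For glucagon plus GW4064 against glucagon, 0 genes of these lists were called with or without the block. There the smallest p of each list belonged to Fosb (0.37), Ets2 (0.26), Hbegf (0.37), Ereg (-0.14), Spred3 (-0.16), Etv1 (-0.13), Nras (0.12), Shc1 (0.11), Klb (-0.27) and Epha1 (-0.42), all at an adjusted p of 1.00. For glucagon plus GW4064 against GW4064, Egr1 fell by 1.72 (adjusted p = 0.0497), and Plaur fell by 1.57 with the block (0.0268, or 0.429 without it). Plaur also fell with both agents against DMSO with the block (-1.43, adjusted p = 0.0390, or 0.746 without it).

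Between the pools, 7 of the 87 tested genes of the 5 lists were called, 8.05% of them, where 5.16% of all genes were called. In experiment 2 against experiment 1, the ligand genes Btc and Fgf1 rose by 0.86 and 0.74 and Tgfa fell by 0.47, and the receptor gene Epha1 rose by 0.61 while Met, the receptor of hepatocyte growth factor, fell by 0.54. Plaur fell by 0.99, and Rasal2, which codes for an inactivator of RAS, fell by 0.49. The adjusted p of these 7 was 0.00833 to 0.0278.

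**Figure D4:**
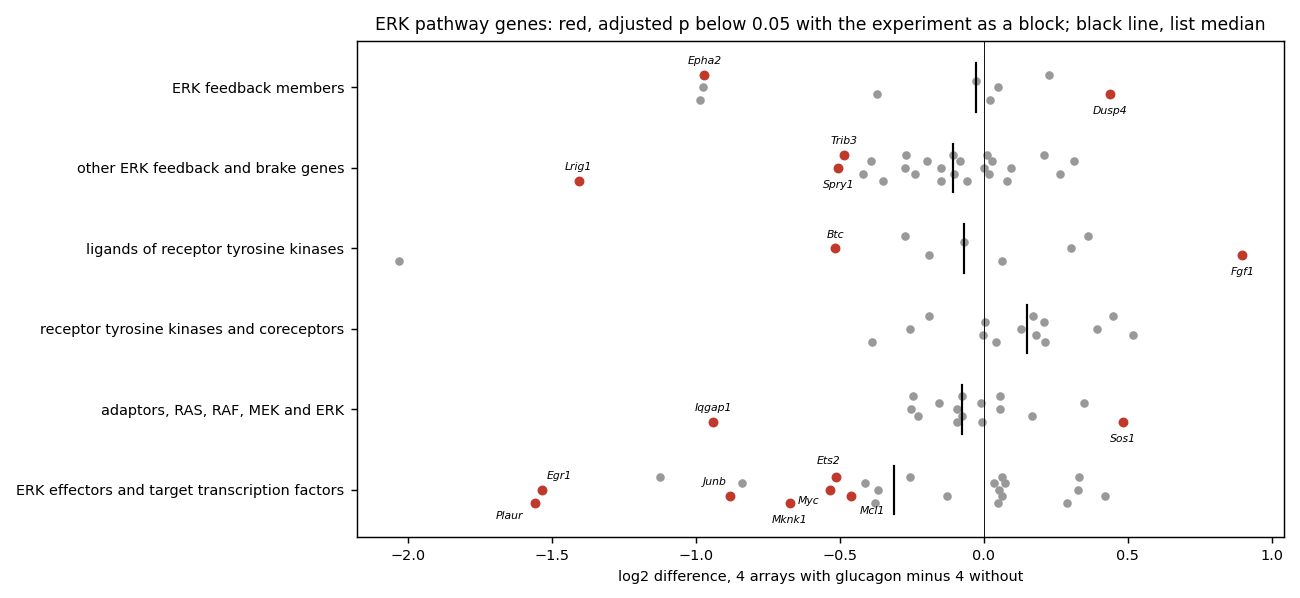
Log2 difference (horizontal axis) between the 4 arrays with glucagon and the 4 without for the tested genes of the ERK feedback list and of 5 other ERK pathway lists. The lists were chosen with earlier results of these data known. Each point is a gene, red where the adjusted p with the experiment as a block was below 0.05, and a black line marks the list's median, which runs from -0.31 for effectors to 0.15 for receptors.

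The genes whose log2 signals followed the members most closely were found by Pearson's r over the 8 arrays, as a description without a test, since the arrays share treatments and pools. Epha2 was most like Mcl1 (r = 0.992), Sec24b (0.991) and Frmd6 (0.991). Phlda1 was most like Napb (0.990), the Notch target gene Hes1 (0.989) and Ddx51 (0.988), and Dusp5 was most like Ppp1r13b (0.995), Ccdc71l (0.993) and Riok1 (0.993). Dusp4 was most like Amdhd1 (0.960), Stk38 (0.959) and Procr (0.957), and Dusp6 was most like Dhx9 (0.985), Snora78 (0.978) and Acin1 (0.974). To the mean of the 9 centred members, Ets1 (0.997), Ccnt1 (0.994), Pkhd1 (0.991), 1110002E22Rik (0.990) and Krt19 (0.989) had the highest r. Mknk2 (-0.986), Apoc3 (-0.982), Mcoln1 (-0.980), Plin3 (-0.980) and Enpp5 (-0.978) had the lowest r. Mcl1, Ets1 and Mknk2 are also in the list of ERK effectors, which thus holds genes at both ends, and Pkhd1 and Krt19 are in that of cholangiocyte markers. Spry4 was most like Septin7 (0.985), Nlrc5 (0.977) and Zfp384 (0.972), Spred1 most like Rnpep (0.973), Foxp4 (0.961) and Gm9968 (0.959), Etv5 most like Ints4 (0.957), Thoc5 (0.917) and Zc3h13 (0.913), and Spry2 most like Zfp111 (0.966), Scrn2 (0.958) and Zfp523 (0.945). Within the list, Dusp5 and Phlda1 had an r of 0.976, Phlda1 and Epha2 of 0.965 and Dusp4 and Epha2 of -0.859, while Dusp6 had an r of at most 0.438 with any other member.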

How the data were processed

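RNA of 8 hepatocyte samples was hybridised to Affymetrix MoGene 2.0 ST arrays after labelling of 300 ng. The log2 signals were deposited by the authors, who, per the labels, used GeneSpring. How they corrected the background and normalized, and with which version, is not given in the sources used here. The log2 scale was read from the values (array medians 3.42 to 3.57). The number of columns of measured values left unused was 0. Of 41345 probe sets, 23521 have 1 gene symbol, 1814 several and 16010 none, and only the first were used. Of these symbols, 23328 were found in RefSeq and 0 changed. A probe set was kept above its array's 40th percentile (3.13 to 3.27) on at least 2 arrays, and the highest mean was used per gene, which left 13845 genes.

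The test was limma 3.58.1 (R 4.3.3) with 1 mean per group over 8 arrays, moderated (4 residual and 3.06 prior degrees of freedom), two-sided, with Benjamini-Hochberg adjustment over all genes in each contrast and a threshold of 0.05. SE is that of this fit. The experiment was a block in an alternative (3 residual degrees of freedom). Per the labels an experiment is 1 cell pool, and same-numbered arrays deviated together (r of 0.350 to 0.620), so the experiments pair the arrays. On data simulated for glucagon against DMSO with 200 of 13845 genes changed, in 20 draws, the calls took in 34.3% of 2-fold and 79.9% of 4-fold changes (23 false calls of 1517), and with the block 56.4% and 88.2% (89 of 2252).

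Named are all members, list genes called in any contrast (at most the 4 with the smallest p per list and contrast) or among the 2 smallest p of glucagon against DMSO and glucagon plus GW4064 against glucagon, 6 genes that check the treatments, and the genes most like the members. The members and lists were chosen with earlier results of these data known.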

Additional observations from a re-analysis of the deposited data

How the results depend on the processing

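The counts of members called were computed again with the replicate block, no filter or a stricter one, quantile normalization, median centring, trend and robust moderation, other probe set rules, only the groups compared, and without each array in turn. Over all glucagon arrays the count was 0 of 9, but 2 with the replicate block, which pairs the arrays of a pool, 4 with the block and without the GW4064 array of experiment 2, and 0 to 1 without 1 array, the call being Dusp5 without the GW4064 array of experiment 2. For experiment 2 against experiment 1 it was 1, but 0 with the mean of all probe sets of a gene, 0 with the other probe set of Dusp6 and Etv5 (chosen after seeing the data) and 0 to 1 without 1 array. The other 7 comparisons called 0 members in each alternative run. Etv5 reversed with the mean of its probe sets, to -0.26 for glucagon against DMSO, both agents against GW4064 and all glucagon arrays. With its other probe set the values were -0.56, -0.57 (both agents against DMSO), -0.52, -0.54 and, between the experiments, -0.23, and that of Dusp6 between the experiments was 0.032. Of 1395 member values recomputed, 105 changed sign, 96 of them within 2 SE of 0 both times, and those were not counted as reversals. Over all genes the replicate block raised the calls from 16 to 128 for glucagon against DMSO, 17 to 102 for both agents against DMSO, 23 to 147 for both agents against GW4064, and 183 to 797 over all glucagon arrays (113 up and 70 down, or 101 and 38 with median centring). With the block and without the GW4064 array of experiment 2 these counts were 438, 342, 190 and 1454. With only the groups compared in the fit the first 3 were 9, 9 and 3. Without 1 array, where a lone array is assumed to vary like the other groups, they ran from 2 to 27, 2 to 24, 2 to 759 and 25 to 702, the count between the experiments (715) from 26 to 728, and the count for GW4064 against DMSO from 0 to 406, the 406 arising where the GW4064 array that stood apart was the only one of its group. Differences under about 2 SE could not be told from 0, and larger ones could also fail the adjusted threshold. An example is Dusp4 over all glucagon arrays (0.44, SE 0.09, limma adjusted p = 0.0962). For Spry2, Etv4 and Etv5 the signal near the filter level limits what can be seen. Dusp4 (3.54 to 4.27) and Spry4 (3.57 to 4.72) exceeded the filter level on all 8 arrays, but their lowest values were close to the array medians (3.42 to 3.57). The cause of these shifts was not tested.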
